A study of Mus musculus with 13 samples.

Results

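A set of 8 genes that encode coregulators of the estrogen receptor was examined for ESR1 (estrogen receptor α) occupancy in hernia-associated fibroblasts (HAFs). They were the corepressors Nrip1 and Ncor1, the p160 coactivators Ncoa1, Ncoa2 and Ncoa3, the acetyltransferases Ep300 and Crebbp, and the Mediator subunit Med1. They were chosen by name for their role, with earlier results of these data known, from 21938 protein-coding genes of the GENCODE vM21 annotation (GRCm38, the assembly of mm10). A peak was assigned to a gene when its summit lay in the gene body or within 10 kb on either side, and 538 of 686823 ESR1 peaks met that rule. Peaks that overlapped across libraries by at least 1 bp were merged into regions, of which 153 of 228284 lay at the 8 genes.

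ESR1 was profiled by ChIP-Seq, in which DNA bound by a protein is recovered with an antibody and sequenced. Primary fibroblasts had been grown from LAM, the muscle of the lower abdomen, of Aromhum mice, which carry the human aromatase gene on the FVB/N background, so that every group here had that transgene. After overnight serum starvation, cells were pretreated for 3 h with 100 nM fulvestrant, an ESR1 antagonist that promotes loss of the receptor, or with its solvent DMSO. They then received 10 nM 17β-estradiol (E2) or its solvent ethanol for 1 h. The 4 groups were therefore vehicle (both solvents), E2, E2 plus fulvestrant, and fulvestrant alone, with 3 libraries each. Nothing in the labels tied the libraries to separate animals or cultures, so p-values below measure the spread between these libraries, which may be technical.

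Ligand-bound estrogen receptor sits at estrogen response elements (EREs), inverted repeats of a half-site, and recruits coregulators. The p160 proteins bind the receptor and bring in the acetyltransferases EP300 and CREBBP, and MED1 links the receptor to Mediator and RNA polymerase II. NRIP1 (RIP140) binds the E2-bound receptor but represses transcription, and its gene is a textbook estrogen target in breast cancer cells. NCOR1 is a scaffold for histone deacetylase complexes and is recruited by several unliganded nuclear receptors.

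A pair of libraries stood apart from the other 10 before any gene was considered. In E2 replicate 1, 59.4% of peaks lay in repeat-masked sequence. Its depth, recovered from the smallest local background among its peaks, was 39.1% of the median library. In fulvestrant replicate 2 those values were 27.9% and 75.8%. The other 10 libraries had 5.57% to 7.79% of peaks in repeats and depths of 92% to 106%. Among the 7816 regions found in all 12 libraries, E2 replicate 1 gave the highest rank to 36.8% and fulvestrant replicate 2 to 26.8%. The main results that rest on them are given with and without them. Promoters of the fibroblast genes Pdgfra, Pdgfrb, Col1a1 and Col1a2 had peaks in 12 of 12 libraries, those of Dcn and Lum in 11 and that of Thy1 in 6. Promoters of the myogenic genes Myod1 and Myf5 and of the leukocyte genes Ptprc and Adgre1 had peaks in 0, and those of Pax7, Des, Pecam1 and Cdh5 in 1 or 2.

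An ERE was searched as GGTCA, any 3 bases, TGACC, on both strands, with at most 1 mismatch, within 100 bp of a summit. Of the 153 regions, 3 held one. They are printed with 30 reference bases on each side, plus strand, and the element in capitals, because the results at Nrip1 turn on them. Positions within an element count from 1 at its 5′ end.

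Nrip1 promoter, first intron, chr16:76373656-76373728, no mismatch: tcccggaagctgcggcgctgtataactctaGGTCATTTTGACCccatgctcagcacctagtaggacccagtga

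Nrip1 intron, chr16:76321731-76321803, C4T: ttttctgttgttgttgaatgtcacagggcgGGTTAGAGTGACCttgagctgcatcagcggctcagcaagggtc

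Ncoa3 3′ flank, intron of Sulf2, chr2:166075637-166075709, A11C: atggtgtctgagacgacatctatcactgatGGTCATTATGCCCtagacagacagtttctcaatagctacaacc

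The GC box GGGCGG ending on the first base of the intronic element, and an AGGTCA half-site read on the minus strand across its end, were within 100 bp of the summit in 8 of 8 peaks there. The centre of the exact element lay 135 bp downstream of the first Nrip1 transcription start site (TSS) and upstream of a second annotated start of the same gene. The intronic element lay 51282 bp downstream of that second start. EREs were found in 1.96% of the member regions and in 1.85% of all regions. Among regions present in at least 3 libraries the shares were 9.68%, or 3 of 31, and 5.14%. A search of the flanks out to 50 kb added no further region with an element at the 8 genes.

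Nrip1, the corepressor, had the clearest ERE-bearing regions of the set. Its intronic region (chr16:76321456-76322185) had a peak in 8 libraries, and the element lay within 100 bp of the summit in 8 of those 8 peaks. By fold enrichment at the summit, E2 replicates 2 and 3 had 9.48 and 9.98, while E2 replicate 1 had no peak. The libraries given E2 plus fulvestrant had folds of 4.31, 3.72 and 5.4 in replicates 1, 2 and 3. Vehicle had a single peak, of fold 2.69 in replicate 2. With fulvestrant alone, replicates 2 and 3 had 3.41 and 3.96 and replicate 1 had none. Each of the 2 E2 folds was therefore above the other 6, and the libraries without a peak were spread over vehicle, E2 and fulvestrant.

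Because fold and q-value are computed within a list, libraries were compared by rank percentile, the rank of a region's best peak by −log10 q as a percent of the list. A value near 0 is among the strongest of its library, and 100 stands for no peak. A merged region can hold several peaks, so its best peak can lie at different summits in different libraries. The Nrip1 intronic region was at 3.76 and 5.51 in E2 replicates 2 and 3, at 25.4, 38.3 and 15 with E2 plus fulvestrant, at 77.8 in vehicle replicate 2, and at 44.7 and 29 in fulvestrant replicates 2 and 3. Its mean was 31.3 ± 36 (SD, n = 6) in libraries given E2 and 75.3 ± 31.3 (n = 6) in those not given it, a difference of −43.9 points (p = 0.0498 by exact permutation of libraries, two-sided, and 0.623 adjusted). Leaving out E2 replicate 1 and fulvestrant replicate 2 gave −63.8 points (exact p = 0.0159, adjusted p = 0.221). Between E2 and E2 plus fulvestrant the groups overlapped because of the absent peak in E2 replicate 1 (difference 10.2 points, exact p = 1, n = 3 each, where the smallest possible p is 0.1). Between E2 and vehicle they overlapped for the same reason (−56.2 points, exact p = 0.4).

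**Figure D1:**
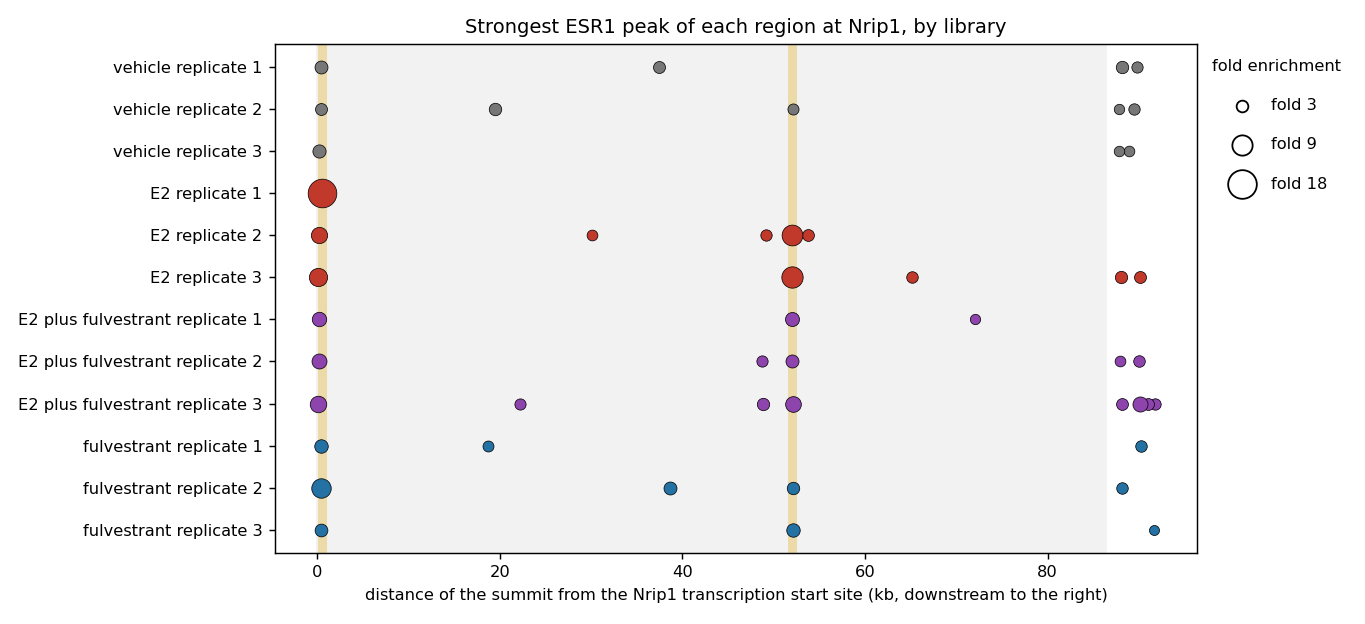
Summits of the strongest ESR1 peak of each region at Nrip1 in the 12 libraries (rows), by distance from the transcription start site in kb. Circle area is proportional to fold enrichment, gray shading is the gene body, and yellow bands are the 2 regions with a response element; at about 52 kb the largest circles are those of E2 replicates 2 and 3.

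The Nrip1 promoter region (chr16:76369917-76374448) was found in all 12 libraries. Its percentiles were 11.7, 18.5 and 8.97 in vehicle replicates 1 to 3, 1.16, 6.49 and 3.99 in E2, 7.69, 6.73 and 5.34 in E2 plus fulvestrant, and 11.5, 2.1 and 12.1 in fulvestrant. All 3 E2 libraries and all 3 E2 plus fulvestrant libraries ranked it above each vehicle library, and fulvestrant replicate 2 alone broke the separation of the 6 libraries given E2 from the 6 not given it. The means were 5.23 ± 2.37 and 10.8 ± 5.33 (SD, n = 6 each), a difference of −5.6 points (exact permutation p = 0.039, adjusted p = 0.623). With E2 replicate 1 and fulvestrant replicate 2 left out and the regions merged anew, it was −6.53 points (exact p = 0.00794, the smallest that 5 against 5 libraries can give, adjusted p = 0.158). Folds were 3.68, 3.13 and 3.82 in vehicle, 18, 5.82 and 7.31 in E2, 4.58, 4.91 and 5.99 in E2 plus fulvestrant, and 4, 8.3 and 3.57 in fulvestrant.

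Summits within that promoter region lay at different distances from the exact ERE. The distance from the strongest summit to the element was 61 and 3 bp in E2 replicates 2 and 3 and 68, 25 and 16 bp in the 3 E2 plus fulvestrant libraries. It was 320, 287 and 20 bp in vehicle and 296, 269 and 295 bp in fulvestrant. E2 replicate 1, at 369 bp, and vehicle replicate 3, at 20 bp, were the exceptions to the split by E2. The mean was 90.3 ± 139 bp in libraries given E2 and 248 ± 113 bp in those not given it (SD, n = 6 each; exact permutation p = 0.0758, adjusted p = 0.658 over 356 regions with an ERE within 500 bp of the summits and a peak in all 12 libraries). Of those 356 regions, 0 (0%) had an adjusted p of at most 0.05 and 24 (6.74%) were nearer with E2 at an unadjusted p under 0.05, and the Nrip1 promoter was not among them. Leaving out E2 replicate 1 and fulvestrant replicate 2 gave −209 bp (exact p = 0.0317). This measure was added after the summits had been seen.

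**Figure D2:**
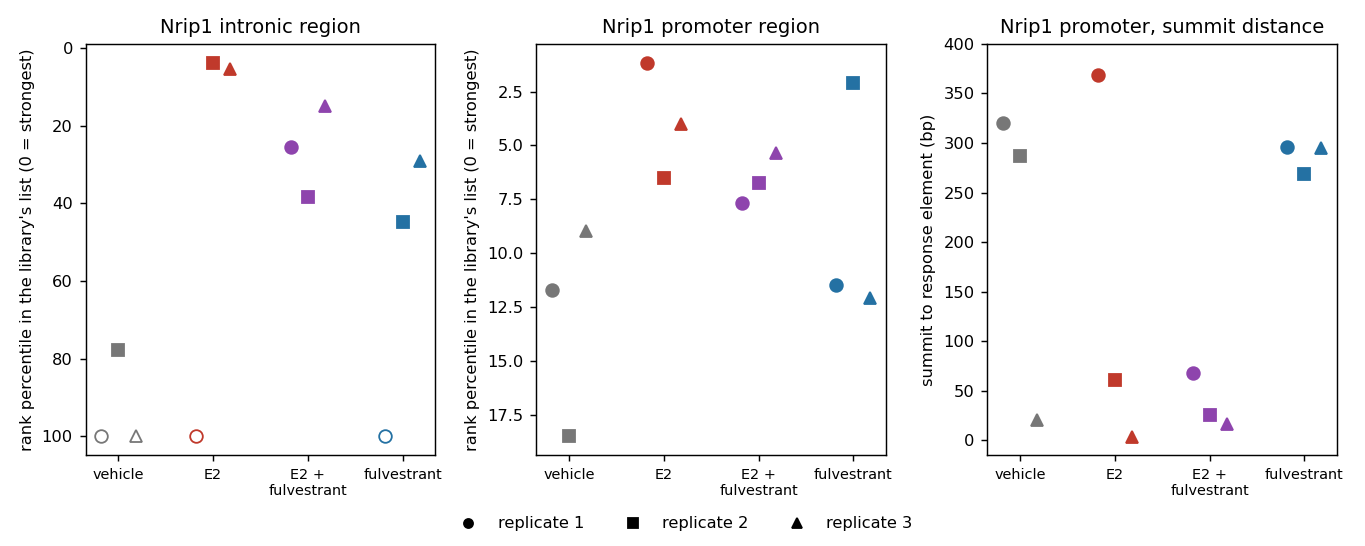
Rank percentile of the Nrip1 intronic and promoter regions (left, middle; strongest at the top, open symbols for no peak, placed at 100) and distance in bp from the promoter summit to the response element (right), by treatment, with 1 symbol per library. In the right panel 5 of the 6 libraries given E2 and vehicle replicate 3 lie at or below 68 bp, and the others between 269 and 369 bp.

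Peak number at Nrip1 showed no such pattern. There were 7, 7 and 5 peaks in vehicle, 1, 6 and 8 in E2, 7, 7 and 10 in E2 plus fulvestrant, and 4, 4 and 5 in fulvestrant. The low value was that of E2 replicate 1, and the means were 6.5 ± 3.02 with E2 and 5.33 ± 1.37 without (SD, n = 6 each; exact permutation p = 0.489, adjusted p = 1). Omitting E2 replicate 1 gave a difference of 2.27 peaks (exact p = 0.0346, adjusted p = 0.936).

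Ncor1, the deacetylase-complex corepressor, had its strongest peak at its promoter in 12 of 12 libraries. That region (chr11:62456363-62458949) held 25 of the gene's 65 peaks, with percentiles of 10.1, 11.3 and 8.58 in vehicle, 1.75, 8.49 and 14.5 in E2, 10.4, 17 and 23 in E2 plus fulvestrant, and 7.28, 5.34 and 8.67 in fulvestrant. The 6 libraries given E2 (mean 12.5 ± 7.34) overlapped the 6 not given it (8.55 ± 2.1; SD, exact permutation p = 0.245). No ERE lay at a summit of any Ncor1 region, whereas 18 of the 25 peaks in the promoter region held a GC box (GGGCGG, either strand) within 100 bp of the summit. Peak numbers were 8, 2 and 7 in vehicle, 5, 6 and 11 in E2, 4, 3 and 7 in E2 plus fulvestrant, and 5, 3 and 4 in fulvestrant.

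Ncoa1, which encodes the p160 coactivator SRC-1, had the fewest peaks, 19 over the 12 libraries. Vehicle had 1, 1 and 0, E2 had 5, 2 and 3, E2 plus fulvestrant had 0, 2 and 1, and fulvestrant had 1, 2 and 1. All 3 E2 libraries were above all 3 vehicle libraries (difference 2.67 peaks, exact permutation p = 0.1, the smallest possible for 3 against 3), as were 10.8% of all 15907 genes tested. It also held for E2 replicates 2 and 3 alone. Among the members all 3 E2 libraries were above all 3 vehicle libraries at Ncoa1 only. E2 replicate 2 equalled E2 plus fulvestrant replicate 2 and fulvestrant replicate 2 at 2 peaks, so E2 overlapped those groups. Over its 249.8 kb window Ncoa1 had 0.761 peaks per 10 kb, against 14.1 at Ncoa3, both summed over the 12 libraries. Given E2 against not given, the difference at Ncoa1 was 1.17 peaks (exact permutation p = 0.232, adjusted p = 1). Omitting E2 plus fulvestrant replicate 1 gave 1.6 (exact p = 0.0455, adjusted p = 0.821).

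The Ncoa1 promoter region (chr12:4477255-4477756) was found in 5 libraries, whereas each of the other 7 members had its promoter region in all 12. Its percentiles were 9.31 in E2 replicate 1, 89.2 in E2 replicate 3, 20.1 and 64.8 in E2 plus fulvestrant replicates 2 and 3, and 6.45 in fulvestrant replicate 2. The 2 strongest values were those of the libraries that stood apart. The RefSeq window of this promoter (GRCm38.p6) held 7 GC boxes in the motif search, the most of the members with an entry. It held no ERE, AGGTCA half-site or AP-1 motif (TGANTCA). The 250 bases before the start are printed because this promoter region was found in the fewest libraries of the 8. They run 5′ to 3′ on the minus strand, with GC boxes in capitals.

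Ncoa1 promoter, chr12:4477183-4477432: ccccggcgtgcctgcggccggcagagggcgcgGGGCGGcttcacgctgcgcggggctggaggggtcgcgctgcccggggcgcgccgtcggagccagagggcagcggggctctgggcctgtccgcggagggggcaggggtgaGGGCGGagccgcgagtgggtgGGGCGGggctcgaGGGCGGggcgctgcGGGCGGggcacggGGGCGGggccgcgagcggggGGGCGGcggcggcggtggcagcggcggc

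Of the 8 members, 6 had entries among the 32851 RefSeq promoter windows, which run from 250 bases before to 50 after a start. Ncoa2 and Ncoa3 were not matched. Over all windows an ERE was found in 0.877%, an AGGTCA half-site in 16.3%, an AP-1 motif in 7.81% and a GC box in 35.7%. No member window held an ERE, and the exact Nrip1 element lay downstream of the window of the first start. Ep300 and Med1 had 1 GC box each and Crebbp had 2, while Nrip1 and Ncor1 each had 2 at one annotated start and 0 at the other.

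Ncoa2, the p160 coactivator also called GRIP1 or TIF2, had a promoter region (chr1:13372555-13374823) in all 12 libraries at a median percentile of 15.3. Values were 11, 19.4 and 28.2 in vehicle, 1.57, 10.8 and 14.6 in E2, 16, 16.2 and 21.1 in E2 plus fulvestrant, and 23.5, 3.08 and 13.5 in fulvestrant. All 3 E2 libraries ranked it above all 3 E2 plus fulvestrant libraries (−8.75 points, exact permutation p = 0.1, the smallest possible), but E2 and vehicle overlapped. For E2 replicates 2 and 3 alone the difference from E2 plus fulvestrant was −5.07 points, again with no overlap. The ranks compared were not all of one site. Best summits lay at 13372925, 13374245 and 13372819 in E2 and at 13372981, 13372912 and 13372892 in E2 plus fulvestrant. Summits also differed within vehicle and within fulvestrant. Given E2 against not given, the difference was −3.08 points (exact p = 0.519). Peak numbers were 5, 2 and 4 in vehicle, 7, 4 and 7 in E2, 3, 5 and 8 in E2 plus fulvestrant, and 2, 12 and 2 in fulvestrant. The 12 peaks belonged to fulvestrant replicate 2, and without it the difference with E2 was 2.67 peaks (exact p = 0.0433, adjusted p = 0.633), against 1.17 peaks with it (exact p = 0.6). Leaving out E2 replicate 1 as well gave 2.4 peaks (exact p = 0.0952, adjusted p = 0.902).

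Ncoa3, the p160 coactivator AIB1, was the most densely occupied member, with 142 peaks and 13 regions in at least 3 libraries. Peak numbers were 20, 11 and 6 in vehicle, 8, 15 and 13 in E2, 11, 10 and 16 in E2 plus fulvestrant, and 12, 10 and 10 in fulvestrant. Vehicle alone spanned the range of all the other groups, and the difference with E2 was 0.667 peaks (exact permutation p = 0.827). Its promoter region (chr2:165991989-165994077) was found in 12 libraries at a median percentile of 35.1 and a range of 2.43 to 66.1. A region 19357 bp downstream of the start (chr2:166009662-166012939) was also found in 12, at a median of 30 and a range of 13.4 to 75.2, and neither held an ERE. That downstream region merged separate peaks and was not a single site in all 12. Its best summits ran from position 166009902 in E2 plus fulvestrant replicate 1 to 166012737 in E2 replicate 1.

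One Ncoa3 intronic region (chr2:166061414-166062424) ranked higher in libraries given E2. It had a peak in 7 libraries, at 88.7 in vehicle replicate 1, 21.4 and 48.8 in E2 replicates 2 and 3, 72.2, 40.5 and 12.1 in E2 plus fulvestrant, and 48.6 in fulvestrant replicate 3. A peak was found in 5 of the 6 libraries given E2 and in 2 of the 6 not given it, and the ranges overlapped. The difference was −40.4 points (exact permutation p = 0.0433, adjusted p = 0.623). Leaving out E2 replicate 1 and fulvestrant replicate 2 gave −48.5 points (exact p = 0.0238, adjusted p = 0.275). It held no ERE, but an AGGTCA half-site lay within 100 bp of the summit in 6 of its 11 peaks. The region with an ERE in the 3′ flank of Ncoa3 (chr2:166074823-166075975) lay in an intron of Sulf2, which encodes an extracellular sulfatase. It had peaks in vehicle replicates 1 and 2 and in E2 plus fulvestrant replicate 3, with folds of 2.82, 3.12 and 4.17, and the element was near the summit in 1 of them.

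Both acetyltransferase genes had a promoter region in all 12 libraries. The Ep300 promoter (chr15:81583684-81587827) was the strongest promoter of the 8 members in these lists, with a median percentile of 0.74 and a range of 0.0832 to 3.34. Values were 0.611, 0.983 and 0.742 in vehicle, 0.0832, 1.24 and 0.441 in E2, 1.41, 1.24 and 3.34 in E2 plus fulvestrant, and 0.738, 0.212 and 0.702 in fulvestrant. The 6 libraries given E2 (1.29 ± 1.13) and the 6 not given it (0.664 ± 0.254) overlapped (SD, exact permutation p = 0.21). Its folds ran from 5.53 to 27.5, and no ERE lay near a summit there.

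Crebbp, the paralog of Ep300, had a promoter region (chr16:4211898-4215386) at a median percentile of 31.7, and in 9 of 12 libraries the strongest peak of its window was instead at the promoter of the neighboring gene Trap1. It was at 48.5, 82.5 and 59.9 in vehicle, 4.03, 41.3 and 24.7 in E2, 22.9, 88.5 and 29.1 in E2 plus fulvestrant, and 27.4, 11 and 34.4 in fulvestrant. Vehicle lay below both single treatments in rank, with no overlap with E2 (−40.2 points, exact permutation p = 0.1, the smallest possible), and E2 plus fulvestrant overlapped every other group. These ranks were not of one site. Best summits lay at 4214330, 4213125 and 4212649 in vehicle and at 4214305, 4213110 and 4214213 in E2. Only 1 library had a peak over the RefSeq promoter window of Crebbp. Between E2 replicates 2 and 3 alone and vehicle the difference was −30.6 points, again with no overlap. At the 2 genes peak number did not separate the groups. Ep300 had 5, 4 and 3 peaks in vehicle, 9, 3 and 4 in E2, 3, 5 and 6 in E2 plus fulvestrant, and 4, 4 and 6 in fulvestrant. Crebbp had 5, 3 and 4, then 5, 5 and 8, then 4, 5 and 10, then 4, 6 and 5 in the same order, and its difference with E2, 1.67 peaks, had the smallest p of the 8 members (exact permutation p = 0.216, adjusted p = 1). The Crebbp counts include peaks at the Trap1 promoter.

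Med1, the Mediator subunit contacted by nuclear receptors, had a promoter region (chr11:98192375-98194289) in all 12 libraries at a median percentile of 20.9. Percentiles were 12.2, 74.4 and 19.3 in vehicle, 10.6, 18.7 and 18.8 in E2, 31.3, 41.4 and 23.8 in E2 plus fulvestrant, and 79.9, 7.81 and 22.5 in fulvestrant. All 3 E2 libraries ranked it above all 3 E2 plus fulvestrant libraries (−16.1 points, exact permutation p = 0.1, the smallest possible), while vehicle and fulvestrant each overlapped both. For E2 replicates 2 and 3 alone the difference was −13.4 points, again with no overlap. The strongest region in the Med1 window was the promoter of the neighboring kinase gene Cdk12 (chr11:98201631-98204435), at a median percentile of 0.471 and a range of 0.0708 to 1.7. Med1 had 6, 4 and 6 peaks in vehicle, 4, 3 and 6 in E2, 6, 5 and 6 in E2 plus fulvestrant, and 6, 4 and 4 in fulvestrant, with means of 5 in both the libraries given E2 and those not given it. These counts include peaks of the Cdk12 promoter region, which held the strongest peak of the window in every library.

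**Figure D3:**
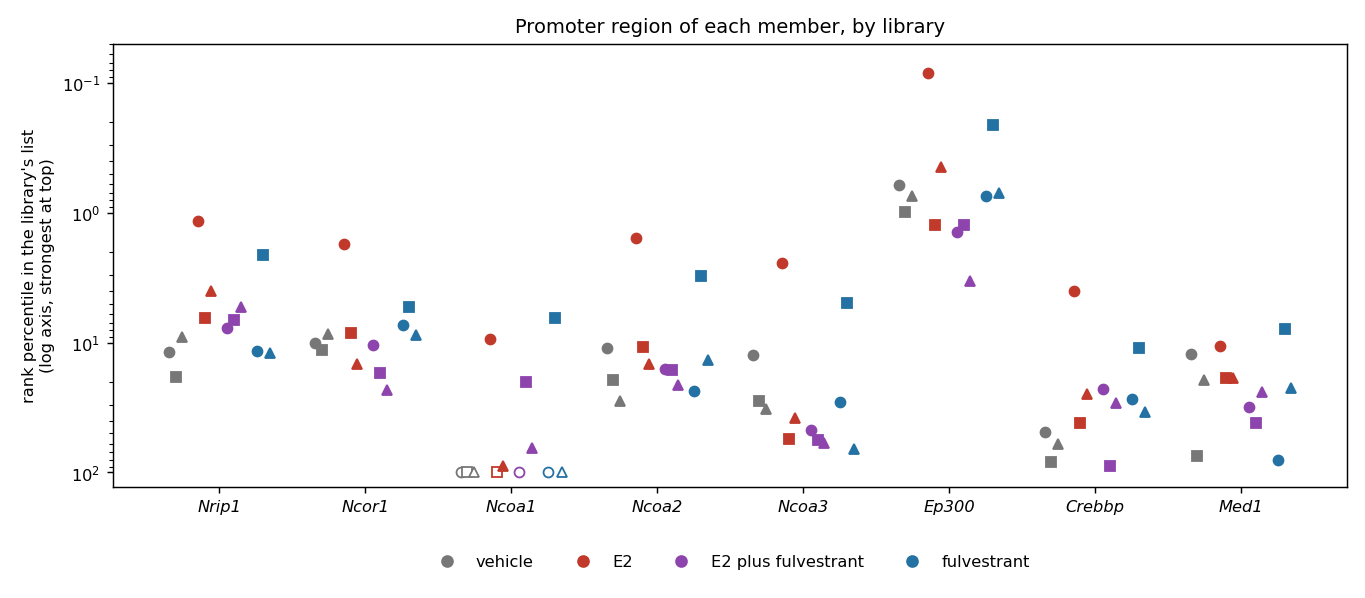
Rank percentile of each member's promoter region in the 12 libraries, on a log axis with the strongest at the top (circles, squares and triangles are replicates 1, 2 and 3; open symbols mean no peak, at 100). Ep300 lies between 0.0832 and 3.34 in all libraries, and Ncoa1 has a peak in 5.

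At 6 of the 8 promoters E2 replicate 1 held the highest rank, and at the other 2, Ncoa1 and Med1, fulvestrant replicate 2 did. Of the 11 member regions present in all 12 libraries, 8 were ranked highest in E2 replicate 1. With both of those libraries left out, the difference between libraries given E2 and not given it had an exact permutation p of 0.0714 at the Ncor1 promoter (5.49 points) and 0.0952 at the Ep300 promoter (0.779 points), each ranked lower with E2. At the Ncoa1, Ncoa2, Ncoa3, Crebbp and Med1 promoters the exact p lay between 0.127 and 0.556. The part of these libraries' depth and repeat content in those ranks was not tested.

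Across the members, no gene was called for a difference in peak number between the 6 libraries given E2 and the 6 not given it. The smallest possible p was 0.00216, so a call after adjustment over all genes needs many genes at that value. An absence of calls therefore does not show that E2 made no difference. With the exact permutation test and Benjamini-Hochberg adjustment over 15907 genes, 0 of 8 members were called at an adjusted p of 0.05 (0% of all genes), and 0 of 8 had an unadjusted p under 0.05 (3.25% of all genes). The mean was higher with E2 at 7 members and equal at Med1, with a median difference of 1.17 peaks, against 0.333 over all genes tested. Leaving out E2 replicate 1 and fulvestrant replicate 2 gave 0 called members and a smallest exact p of 0.0873, at Nrip1. The higher mean with E2 depended on the scaling. Per 10000 peaks of each list, 3 members were higher and 5 lower with E2, and the share of all genes with a higher mean went from 63.6% to 34.1%. For fulvestrant against no fulvestrant, 0 of 8 members were called (0% of all genes) and 0 had an unadjusted p under 0.05 (0.905% of all genes), with a smallest p of 0.182 at Ncor1.

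**Figure D4:**
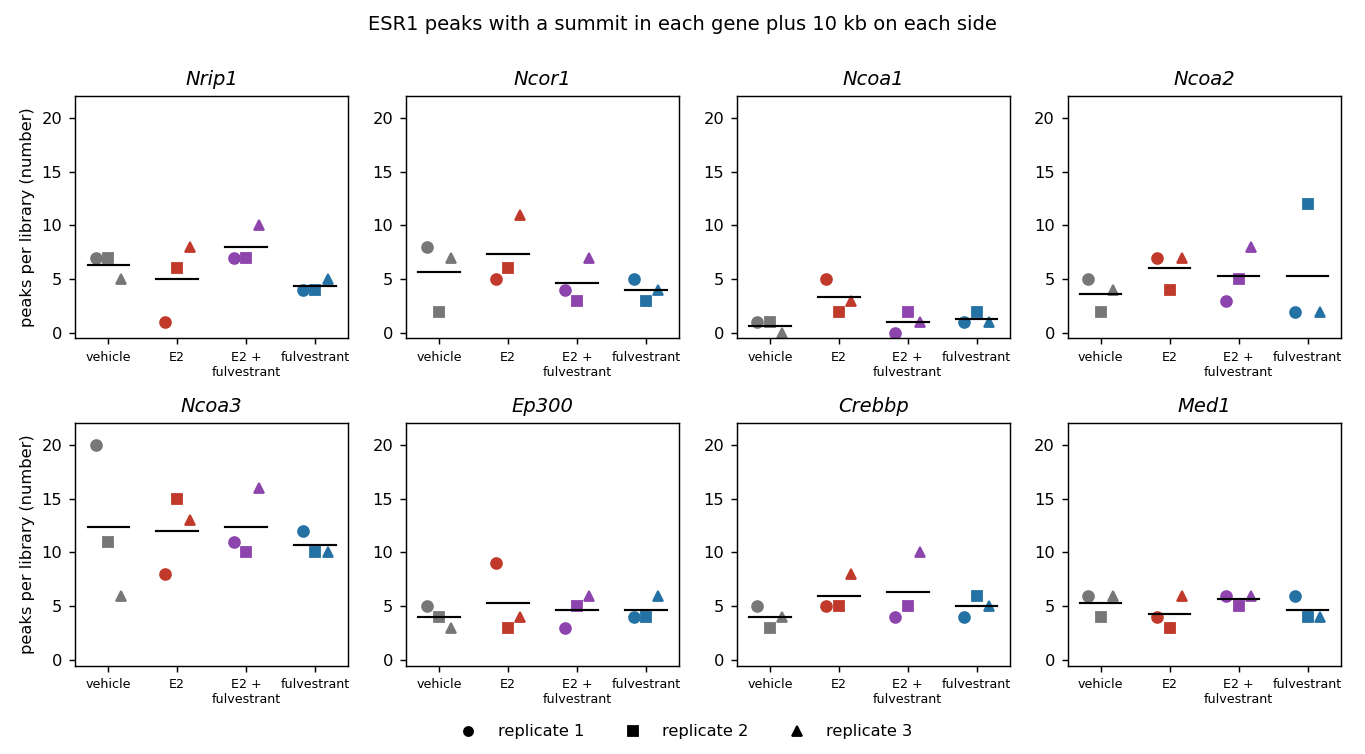
Number of ESR1 peaks with a summit in each gene plus 10 kb on each side, with 1 symbol per library and a line at the mean of the 3 libraries of a treatment. Only at Ncoa1 do all 3 E2 libraries (5, 2 and 3 peaks) lie above all 3 vehicle libraries (1, 1 and 0).

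Of the 153 member regions, 102 (66.7%) were found in 1 library, against 64.2% of all regions, and 31 (20.3%) in at least 3, against 21.7%. Regions in all 12 libraries made up 7.19% of the member regions and 3.42% of all. Among the 31 that could be tested, 0 were called for E2 at an adjusted p of 0.05 (0% of 49642 regions) and 3 ranked higher with E2 at an unadjusted p under 0.05 (exact permutation test), against 4.58% of all regions. These 3 were the Nrip1 intron, the Nrip1 promoter and the Ncoa3 intron described above. The count was 0 or 1 when any of vehicle replicates 1, 2 or 3, E2 replicates 2 or 3, E2 plus fulvestrant replicates 2 or 3 or fulvestrant replicate 1 was left out. In those settings the share of all regions ran from 3.56% to 4.9%. It was 5 of 35, against 14.9% of all regions, without E2 replicate 1 and fulvestrant replicate 2. The median difference was −1.27 points over the member regions and −6.2 over all. For fulvestrant, 0 of the 31 were called (0% of all regions) and 0 had an unadjusted p under 0.05 (1.16% of all regions), with a smallest p of 0.152. All 3 E2 libraries ranked above all 3 vehicle libraries at 3 of the 31 regions, against 5.87% of all regions, namely the Nrip1 and Crebbp promoters and a region 5544 bp upstream of the Ncoa3 start. They ranked above all 3 E2 plus fulvestrant libraries at 3 of the 31, against 5.67% of all, namely the Ncoa2 and Med1 promoters and the Trap1 promoter in the Crebbp window. The difference made by E2 differed with and without fulvestrant at 0 of the 31 by adjusted p (0% of all regions) and at 3 by an unadjusted permutation p under 0.05, against 4.97% of all. Of the 31 regions, 0 were present in 3 of 3 libraries of one treatment and 0 of 3 of the other in any of the 4 pairs compared, against 5.53% of all regions tested.

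Among 34 other coregulator genes, 0 passed an adjusted p of 0.05 for E2 (0% of all genes). An unadjusted p under 0.05 (exact permutation test) was found at 3, against 3.25% of all genes in either direction. Each of the 3 had more peaks in libraries given E2. Med24, a further Mediator subunit, had 7, 4 and 4 peaks in E2 and 4, 4 and 4 in E2 plus fulvestrant, against 2, 1 and 3 in vehicle and 2, 3 and 2 in fulvestrant (exact p = 0.00216, the smallest possible, adjusted p = 1). In unscaled peak number, every library given E2 was above every library not given it at Med24. The lists differed in length, with 39763 peaks in vehicle replicate 3 and 68971 in E2 replicate 3. Vehicle replicate 3 had 3 Med24 peaks and E2 replicate 3 had 4, so per 10000 peaks of the list the separation did not hold. Trim24, an acetylated-histone reader that binds nuclear receptors, differed by 1.67 peaks (exact p = 0.0346, adjusted p = 1), and Ncoa7, an estrogen receptor-associated protein gene, by 3.5 (exact p = 0.0433, adjusted p = 1). For fulvestrant 0 of the 34 had an unadjusted p under 0.05 (exact permutation test), against 0.905% of all genes.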

How the data were processed

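To make the lists, the authors used Trimmomatic 0.39 on single-end reads, Bowtie2 with mm10, Picard 2.21.4 for duplicates and MACS2 for peaks. The authors also removed peaks in ENCODE blacklisted regions, and whether the deposited lists were made before or after that step was not stated. Each of the 12 deposited lists held, per peak, a score (not used), the authors' fold enrichment over local background as a ratio, and the authors' −log10 p and −log10 q. The input sample was not analysed here. Peaks were ranked by −log10 q within each list with Python 3.11.15, and depth was recovered from fold and p, since read totals were not used here. Folds of different lists are set side by side as descriptions, and tests used ranks within lists, peak numbers and summit positions.

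Genes or regions with a peak in at least 3 libraries were tested by two-sided exact permutation of libraries (6 against 6: 924 arrangements; 3 against 3: 20), with Benjamini-Hochberg adjustment over all of them; code was tested on simulated data. Differences of differences used 369600 assignments. The study's read-count model was not run, because lists hold no read counts per region. The paper also reports that batch effects were removed with limma in its ChIP-Seq analysis. That step was not run either, and the main tests modelled no batch. The text covers all 8 members, each promoter, strongest, ERE-bearing or separated region, and at most 5 other coregulators by smallest p. Members, lists and tests were chosen with earlier results of these data known. Alternatives were filters on q and repeats, scaling, windows, ranking, region building and omitted libraries.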

Additional observations from a re-analysis of the deposited data

Results flagged for a closer look

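At 3 member regions the difference made by E2 was not the same with and without fulvestrant, by a permutation test of the difference of differences in rank percentile (E2 plus fulvestrant minus fulvestrant, less E2 minus vehicle). None passed adjustment over 49642 regions, 0 of which (0%) had an adjusted p of at most 0.05, and 4.97% of all regions had an unadjusted p under 0.05. At the Crebbp promoter the difference of differences was 62.8 points (permutation p = 0.0368, adjusted p = 0.837), with percentiles of 48.5, 82.5 and 59.9 in vehicle, 4.03, 41.3 and 24.7 in E2, 22.9, 88.5 and 29.1 in E2 plus fulvestrant, and 27.4, 11 and 34.4 in fulvestrant. At the promoter of Trap1, a mitochondrial chaperone gene in the Crebbp window, it was 28.8 points (permutation p = 0.0216, adjusted p = 0.837). Its percentiles were 10.2, 39.1 and 15.1 in vehicle, 12.7, 14.4 and 7.29 in E2, 30.6, 15.6 and 35.1 in E2 plus fulvestrant, and 4.47, 7.29 and 13.2 in fulvestrant. At a region 5544 bp upstream of the Ncoa3 start (chr2:165986657-165987667) it was 73.3 points (permutation p = 0.0455, adjusted p = 0.837), with no peak in vehicle replicates 2 and 3 and 40.5 in replicate 1, and a peak in all 9 other libraries, at 2.84 to 55.4. Without E2 replicate 1 and fulvestrant replicate 2 the 3 values were 46.6, 28.9 and 60.3 points, in the same order and with no test. E2 replicate 1 held the highest rank at the Crebbp promoter and at the Ncoa3 upstream region, and its part in the values was not tested. The Crebbp promoter percentiles came from different summits in different libraries.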

How the results depend on the processing

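The counts of members called at an adjusted p of 0.05 were 0 for genes and 0 for regions under every alternative run. These counts say little, because the exact permutation p of 6 against 6 libraries cannot go below 0.00216. After adjustment over all genes or regions, a call needs many of them at that value together. In the main setting, 3 of 31 member regions ranked higher with E2 at an unadjusted permutation p under 0.05, against 4.58% of all regions. The count became 1 of 13 among peaks with −log10 q of at least 10, against 8.35% of all regions. It was 1 of 31 when ranked by fold (4.49% of all regions). With the rank itself in place of the percentile it was 0 of 31 (0.564% of all regions). Without E2 replicate 1 and fulvestrant replicate 2 it was 5 of 35 (14.9% of all regions). Leaving out 1 library at a time gave 0 to 3, against 3.56% to 15.2% of all regions. With the replicate block, which permutes treatments only among libraries of the same number, the count was 1 of 31 (3.95% of all regions). Deviations of libraries with the same replicate number had a mean correlation of 0.0198 (18 pairs, 6 above 0.1). For libraries with different numbers it was −0.00748 (36 pairs, 6 above 0.1). The main tests did not pair libraries by number, and whether the number marks a shared batch was not tested. The 3 of 153 regions with an ERE, against 1.85% of all regions, became 1 of 153 with no mismatch allowed, against 0.199%. Within 250 bp of the summit there were 5 of 153, against 2.93% of all regions. Peak-number differences changed sign at Ep300 with −log10 q of at least 10 (−0.333), without E2 replicate 1 (−0.133) and without both E2 replicate 1 and fulvestrant replicate 2 (−0.2), and at Ncoa3 without repeat-masked peaks (−0.5), within 50 kb (−0.833), without vehicle replicate 3 (−0.433) and without E2 plus fulvestrant replicate 3 (−0.1). Per 10000 peaks they changed sign at Nrip1 (−0.0594), Ncoa3 (−0.447), Ncor1 (−0.107) and Ep300 (−0.181). Over all omissions of 1 library the difference ran from −0.433 to 2.37 peaks at Ncoa3 and from −0.133 to 1.07 at Ep300. The counts at an unadjusted p, the summit distances, and the promoter, separation and difference-of-differences values without the 2 libraries were added after seeing the data. The causes were not tested. A missing peak in a list does not show absent binding, and the depth recovered from the lists differed between libraries.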
